A study of Mus musculus with 24 samples.

Results

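The progress of bisulfite conversion of mouse mtDNA between 5 and 15 min of treatment was examined in 10 of the 24 libraries of the series, as 5 pairs of a 15 min and a 5 min library. The pairs came from 2 preparations of embryonic stem cells (ESC 1 and ESC 2, line E14), from 1 preparation each of brain and liver (brain 1 and liver 1, strain C57BL/6J), and from 1 preparation of synthetic mtDNA. Synthetic mtDNA was generated by PCR, which copies no methyl groups, so it carries no 5-methylcytosine (5mC), and its strain is given as C57BL/6J. The 4 native preparations came from mitochondria that were homogenised out, washed, ultracentrifuged and treated with benzonase, a nuclease. Ages, the number of animals and pooling of tissues were not given in the sources used here. Native mtDNA was linearised with a restriction enzyme, whereas the synthetic product was linear as made. In all 10 libraries λDNA was mixed in before the bisulfite step, and adaptors were added by random priming once the DNA had been converted, the method known as PBAT. Each preparation had a single library per duration, so the replicate was the preparation. Synthetic mtDNA had 1 pair, and brain and liver had 1 pair each.

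Bisulfite deaminates unmodified cytosine in single-stranded DNA to uracil, which is read as thymine, whereas 5mC is left as cytosine. A cytosine of a treated strand that is read as cytosine was therefore either modified or had escaped the reaction. For reads assigned to the L strand the paper names another possibility. Copies of H-strand fragments without cytosine could align to the L strand, where they would count as unconverted. The part of such reads in the L-strand rates was not tested here. The strands of mammalian mtDNA differ in base composition: the heavy (H) strand is rich in guanine and the light (L) strand is rich in cytosine and poor in guanine. For each cytosine, the deposited values are its coverage by reads and its unconversion rate, the percent of those reads in which it was still a cytosine. 3890 cytosines of the L strand and 1939 of the H strand are listed. For each pair, sites with a coverage of 10 or more in both libraries were used. The change is the rate at 15 min minus the rate at 5 min, in percentage points.

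The libraries held 844303 to 1722313 cytosine calls (median 1111638), and no 2 of them had identical coverage. The ESC 1 library of 15 min stood apart from the rest. Its H-strand rate was above that of each other native library of 15 min at 96.1% of the 1867 H-strand sites covered in all 10 libraries, with a mean of 10.4% against 3.43%. For the L strand this was so at 57.1% of 2214 sites. Strand means are therefore given with and without ESC 1. In most regions leaving it out lowered the H-strand mean at 15 min by less than 1.5 times.

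The sites that marked the extremes of the change lay in sequences of different kinds, given here 5′ to 3′ on the strand named, in build mm10 (GRCm38), from the RefSeq mtDNA sequence, with the cytosines in question in capitals. The first shows 4 of the 5 H-strand sites with the largest fall, in the 12S rRNA gene mt-Rnr1, and the second 4 of the 5 L-strand sites with the largest fall, in ND5, a gene of respiratory complex I. The third shows the pair of ND5 cytosines with the largest and the fifth largest rise in mean rate among L-strand sites, which did not pass the test. The last shows 24 cytosines in ND6 that rose, in a stretch of 78 bases with 1 guanine.
H strand, chrM:853-895: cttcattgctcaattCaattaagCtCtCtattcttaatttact
L strand, chrM:12572-12619: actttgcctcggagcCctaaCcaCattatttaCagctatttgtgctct
L strand, chrM:12821-12855: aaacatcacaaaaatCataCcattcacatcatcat
L strand, chrM:13671-13748: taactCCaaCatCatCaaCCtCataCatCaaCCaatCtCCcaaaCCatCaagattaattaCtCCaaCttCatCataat

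Both strands lost unconverted cytosines in every pair, and over all sites used the mean losses in percentage points were close, from different starting levels. H-strand rates at 5 min were 32.1% in ESC 1, 33.1% in ESC 2, 31.6% in brain 1, 31.7% in liver 1 and 29.2% for synthetic mtDNA, over 1888 to 1925 sites. At 15 min they were 10.5%, 3.51%, 3.67%, 3.41% and 3.32%, in the same order. All H-strand values of 15 min thus lay under all values of 5 min, and ESC 1 was the highest at 15 min. The mean change was -26.6 ± 3.13 percentage points (SD, n = 5 pairs), with 5 of 5 pairs lower (exact sign-flip permutation test, two-sided, p = 0.0625, the smallest that 5 pairs allow; Benjamini-Hochberg adjusted over 5 comparisons, 0.0781). Without ESC 1 it was -27.9 ± 1.55.

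L-strand rates at 5 min were 62.9% in ESC 1, 62.2% in ESC 2, 61.7% in brain 1, 61.4% in liver 1 and 63.0% for synthetic mtDNA, over 2384 to 2856 sites. They were 41.6%, 33.4%, 33.8%, 34.6% and 34.5% at 15 min. The groups did not overlap on this strand either, and ESC 1 was again the highest at 15 min. The mean change was -26.7 ± 3.11 percentage points (SD, n = 5 pairs), lower in 5 of 5 pairs (exact sign-flip permutation test, p = 0.0625, adjusted 0.0781), and -28.0 ± 0.926 without ESC 1. If libraries were taken as unpaired, 5 of 15 min against 5 of 5 min, the exact permutation test gave p = 0.00794 for each strand, the smallest p that this split allows.

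**Figure D1:**
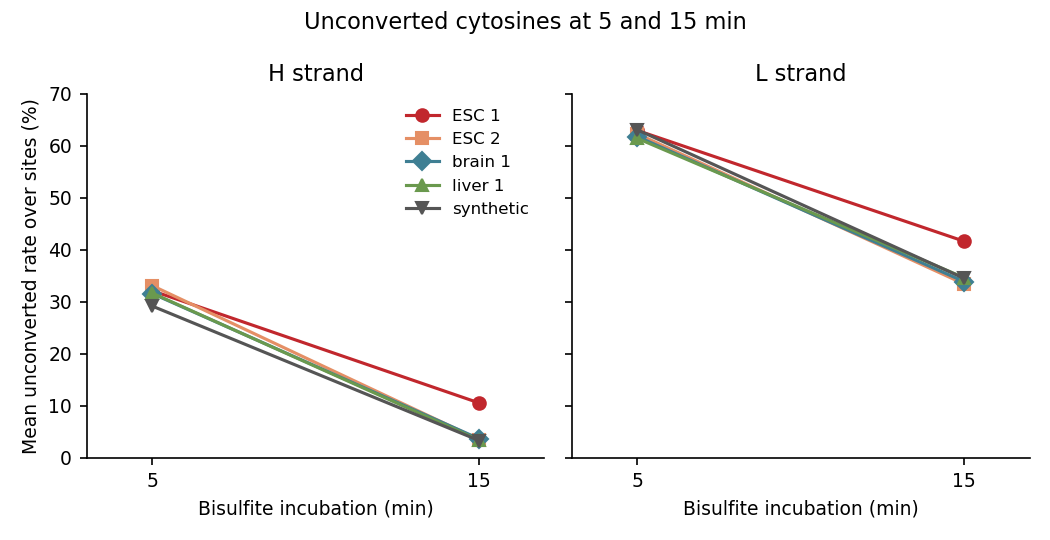
Mean unconversion rate (%) of H-strand and L-strand sites at 5 and 15 min of bisulfite treatment, with a line for each of the 5 preparations. H-strand rates fell from between 29.2 and 33.1% to between 3.32 and 10.5%, and L-strand rates from between 61.4 and 63.0% to between 33.4 and 41.6%, with ESC 1 the highest at 15 min on both strands.

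The L-strand change minus the H-strand change was 0.261 percentage points in ESC 1, 0.719 in ESC 2, 0.0250 in brain 1, 1.47 in liver 1 and -2.71 for synthetic mtDNA. The mean of -0.0467 ± 1.59 (SD, n = 5 pairs) was within the spread between pairs (exact sign-flip permutation test, p = 1, adjusted 1). The L-strand mean included sites at 90% or more in both libraries of a pair, which by this choice changed little. No H-strand site was among them, so leaving them out enlarges the L-strand fall by construction. The L-strand change was then -34.3 percentage points, and the L minus H difference -7.63, given as a description. Relative to the starting level, the strands differed in every pair. The share of the 5 min rate that remained at 15 min was 10.6 to 11.6% on the H strand of 4 preparations and 32.8% in ESC 1, whereas on the L strand it was 53.6 to 56.4% and 66.1%. On the log2 scale, the L strand retained 2.05 more than the H strand (mean of 5 pairs, higher in the L strand in 5 of 5, exact sign-flip permutation test, p = 0.0625).

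Coverage changed together with the rate, and differently on the strands. Over the sites used, the median coverage of the L strand went from 92 to 48 reads in ESC 1, from 116 to 45 in ESC 2, from 153 to 62 in brain 1, from 103 to 45 in liver 1 and from 94 to 50 for synthetic mtDNA. H-strand medians were 225 to 373 reads at 5 min and 249 to 419 at 15 min. Between 632 and 1115 L-strand sites per pair were covered at 5 min only and so left out, and their mean rate at 5 min was 81.3 to 85.0%, above the mean of the sites used. Only 4 to 44 H-strand sites per pair were left out in this way. Rates at 15 min and the change on the L strand therefore describe sites that kept their coverage, and the part of this loss in the changes was not tested.

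Single sites were tested across preparations with limma on the difference of empirical logits, at the 1867 H-strand and 2214 L-strand sites with at least 10 reads in each of the 10 libraries, with Benjamini-Hochberg adjustment over both strands and a threshold of 0.05. The limma fit draws the variance of each site towards that of all sites tested. At the sites named below its SE was 0.352 to 0.373 on the logit scale. The p-values of single sites thus rest largely on this shared variance, not on the SD printed beside them. 1866 H-strand sites fell, which is 99.9% of those tested, and none rose (0%). The H-strand changes ranged from -55.0 to -0.82 percentage points, with a median of -26.8. Of the L strand, 1847 sites fell (83.4%), 44 rose (1.99%) and 323 were not called, with changes from -80.5 to 9.0 percentage points and a median of -26.0. Among the 323 sites without a call, 294 had a mean rate of 90% or more at 5 min. 1631 of the L-strand sites that fell were lower in all 5 pairs.

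The H-strand site without a call was H15564 in the control region, the noncoding part of mtDNA that holds origins of replication and promoters. It lies in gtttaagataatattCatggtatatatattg (H strand, chrM:15549-15579), and it was nearly converted at 5 min already, at 3.28%, against 2.46% at 15 min (limma, adjusted p = 0.268). 75 L-strand sites called as fallen had a mean fall of less than 1 percentage point, from 99.8 to 99.4%, at median coverages of 230 and 65 reads. The empirical logit of a rate near 100% is bounded by the coverage: a site at 100% in both libraries would change by -1.26 on this scale at those coverages. The calls of these 75 sites thus cannot be told apart from the loss of coverage, and 1772 sites fell by 1 percentage point or more. The same bound acts on other sites near 100%. Of 429 L-strand sites at 90% or more in all 10 libraries, 141 were called as fallen. A fit in percentage points called 1672 L-strand sites as fallen, of which 1669 were also called on the logit scale.

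**Figure D2:**
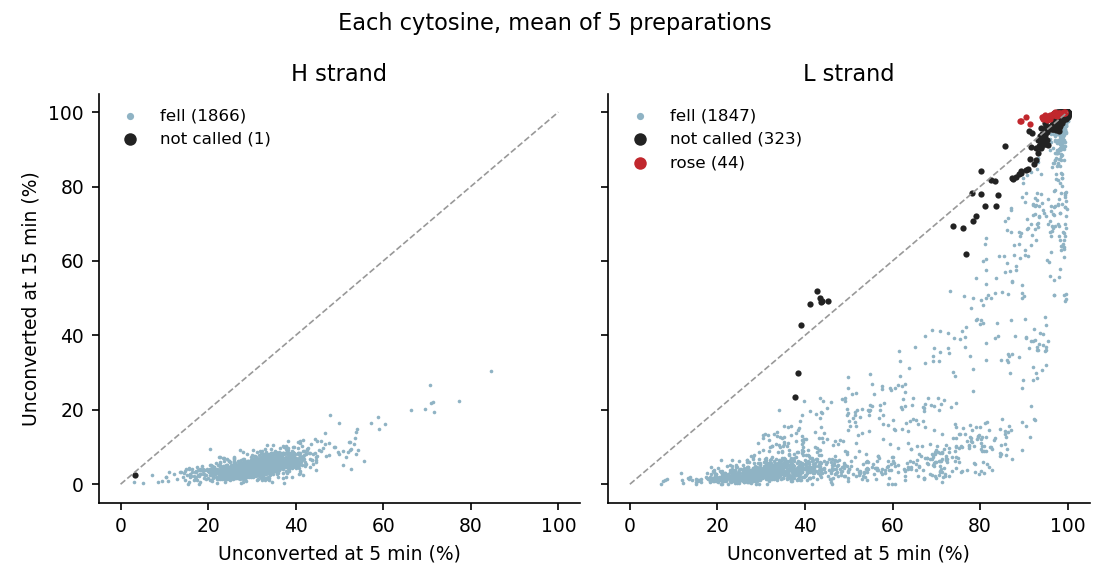
Mean unconversion rate (%) over the 5 preparations of each site covered in all 10 libraries, at 5 min (x axis) and 15 min (y axis), for the H and L strands. H-strand sites form 1 cloud far below the diagonal, whereas L-strand sites run from low rates at 15 min up to sites that stay near 100% at both times.

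H-strand sites with the largest fall were H872, H880, H870 and H868 in mt-Rnr1 and H7611 in COX2, a core subunit gene of cytochrome c oxidase. H880 was at 78.8% in ESC 1, 81.2% in ESC 2, 85.8% in brain 1, 87.9% in liver 1 and 89.0% for synthetic mtDNA at 5 min. At 15 min it was at 52.4%, 38.5%, 29.4%, 21.4% and 10%. The mean change was -54.2 ± 20.5 percentage points (SD, n = 5 pairs; limma, adjusted p = 4.02e-09). The 4 mt-Rnr1 sites lie within 13 bases and share reads, and at 15 min they were covered by 10 to 12 reads in synthetic mtDNA and by 13 to 49 in the native libraries. Despite these falls, they were among the less converted sites of the H strand at both times, with means of 71.5 to 84.5% at 5 min and 19.3 to 30.3% at 15 min.

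H7611, in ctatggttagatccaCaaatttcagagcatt (H strand, chrM:7596-7626), was covered more deeply, by 92 to 302 reads. Its rate was 60.8% in ESC 1, 64.0% in ESC 2, 56.3% in brain 1, 56.8% in liver 1 and 40.2% for synthetic mtDNA at 5 min, and 18.4%, 3.3%, 7.4%, 1.0% and 0.9% at 15 min. The fall was -49.4 ± 8.94 percentage points (SD, n = 5 pairs; limma, adjusted p = 1.68e-12). Every rate at 15 min was below every rate at 5 min. Among H-strand sites with a mean of at least 10% at 5 min, the smallest falls were found at H4550 (-7.76 ± 3.72 percentage points), H4479 (-8.54 ± 3.09) and H4797 (-9.26 ± 4.26) in ND2, at H11881 (-8.34 ± 4.80) in ND5 and at H15360 (-10.02 ± 4.01) in TrnP, the gene of the proline tRNA (SD, n = 5 pairs). These 5 sites started at 10.3 to 12.1%, so the fall could not be larger than that, and each was lower in 5 of 5 pairs. The surroundings of H11881, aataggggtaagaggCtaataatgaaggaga (chrM:11866-11896), and of H4797, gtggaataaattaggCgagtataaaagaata (chrM:4782-4812), face an L strand with 1 guanine in these 31 bases, the one opposite the cytosine itself.

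The 5 largest falls of the L strand were all in ND5, at L12524, L12587, L12592, L12595 and L12604. L12595 was at 91.6% in ESC 1, 96.0% in ESC 2, 86.1% in brain 1, 90.6% in liver 1 and 83.2% for synthetic mtDNA at 5 min, and at 25%, 5.1%, 8.7%, 7.5% and 0% at 15 min. The last value rests on 0 of 47 reads, which allows a rate of up to 6.38% (3 reads, counting error only). The mean change was -80.2 ± 9.01 percentage points (SD, n = 5 pairs; limma, adjusted p = 1.36e-17). L12524 lies apart from the others, in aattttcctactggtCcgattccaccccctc (L strand, chrM:12509-12539), and fell by 80.5 percentage points, from a mean of 87.4 to 6.90%. At 15 min it was at 23.5% in ESC 1, 0% in ESC 2, 0% in brain 1, 8.7% in liver 1 and 2.3% for synthetic mtDNA, and its mean without ESC 1 was 2.75%, at coverages of 32 to 60 reads at 5 min and 11 to 43 at 15 min. All 5 sites were at 71.9% or more in every library of 5 min and at 31.2% or less in every library of 15 min.

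L12836 and L12840 had means that went up without being near 100%. L12836 was at 40.1% in ESC 1, 49.8% in ESC 2, 37.8% in brain 1, 47.2% in liver 1 and 39.4% for synthetic mtDNA at 5 min. At 15 min it was at 44.7%, 65.5%, 38.2%, 60.0% and 50.9%. Although 5 of 5 pairs were higher at 15 min, by 9.0 ± 6.30 percentage points (SD, n = 5), the change did not pass the test (limma, adjusted p = 0.318). That test used a variance largely shared with other sites (SE 0.352 on the logit scale), not the spread of these 5 pairs alone. Coverage was 137 to 360 reads at 5 min and 29 to 55 at 15 min. Values of L12840 were also higher in 5 of 5 pairs, from a mean of 41.3 to 48.4% (adjusted p = 0.426). The 35 bases printed above, which hold both sites, have no guanine on the L strand.

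Sites that rose were clustered in 1 place. Of the 44, 43 lay between nt 13478 and 13814, where 65 L-strand sites were tested, 18 were not called and 4 fell. 40 of them lay in ND6, the protein gene that is oriented opposite to the others, out of 99 L-strand sites tested there. The other site, L10343, was in ND4. Neighbouring sites share reads, so the 43 calls are not separate results. The stretch was picked for its calls, so its values are a description. Over its 65 sites, the mean rate went from 97.4 to 99.2% in ESC 1, from 97.3 to 99.4% in ESC 2, from 95.4 to 99.2% in brain 1, from 97.4 to 98.8% in liver 1 and from 98.5 to 99.6% for synthetic mtDNA. Native and synthetic mtDNA moved the same way here.

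The 44 sites rose by 0.44 to 8.60 percentage points, with a median of 2.08, from means of 89.1 to 99.4% at 5 min to 96.9 to 100% at 15 min. 32 of them were higher in all 5 pairs, and 35 rose by 1 percentage point or more. Their median coverage was 519 reads at 5 min and 252.5 at 15 min. When sites were fitted in percentage points instead of logits, 20 rose, of which 15 were among these 44. The largest rise was at L13783 in ND6, which went from 87.8 to 95.7% in ESC 1, from 92.8 to 100% in ESC 2, from 79.2 to 97.0% in brain 1, from 94.4 to 96.0% in liver 1 and from 91.5 to 100% for synthetic mtDNA (8.60 ± 5.83 percentage points, SD, n = 5 pairs; limma, adjusted p = 0.000628). It lies in a second guanine-poor stretch of the gene, in which 13 cytosines rose, shown to be set beside the first.
L strand, chrM:13768-13819: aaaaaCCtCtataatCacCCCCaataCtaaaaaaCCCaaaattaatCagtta
L13514 and L13515 in the end of ND5, in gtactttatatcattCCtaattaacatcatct (L strand, chrM:13499-13530), rose by 8.36 ± 5.34 and 8.10 ± 6.69 percentage points (SD, n = 5 pairs). They rested on 16 to 50 reads at 15 min, and L13514 was lower in synthetic mtDNA and higher in the 4 native pairs. Within 25 bases on either side, sites that rose had a median of 1 guanine on the L strand and at most 5, against a median of 5 over all L-strand sites tested.

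**Figure D3:**
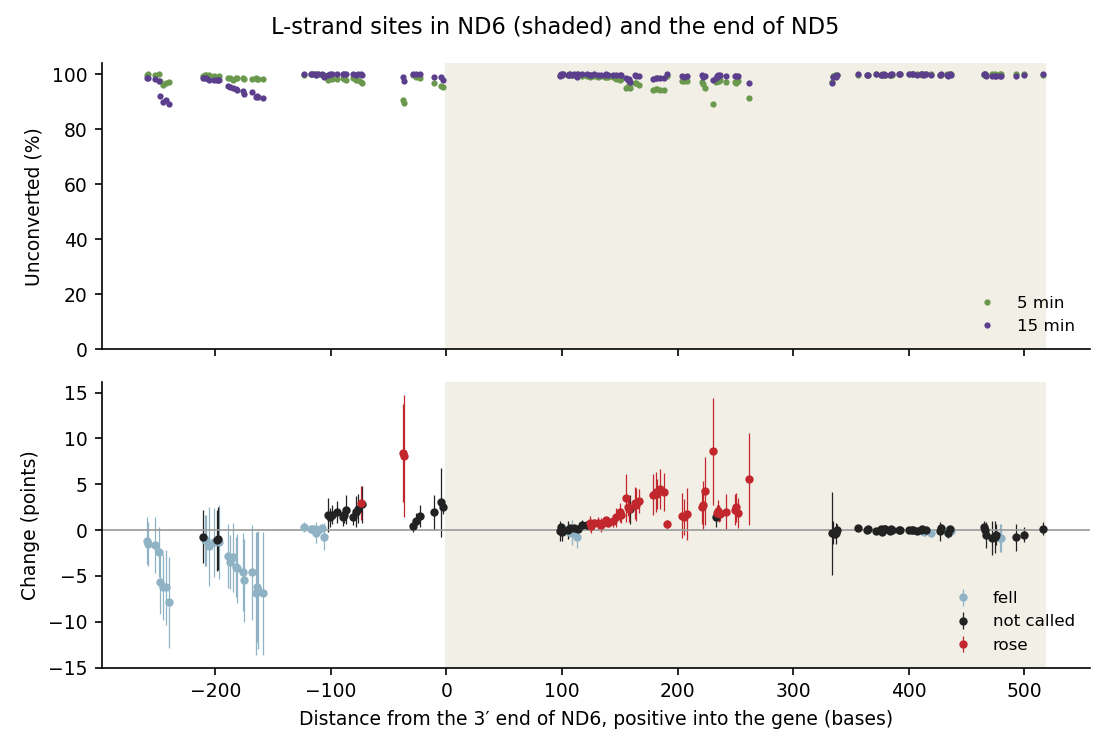
Unconversion rate (%), mean over 5 preparations, of L-strand sites in ND6 (shaded) and the adjoining end of ND5 at 5 and 15 min, and below it the change (percentage points, mean and SD of 5 pairs), by distance (bases) from the 3′ end of ND6. Nearly all sites of the gene were above 90% at both times, and the sites that rose run from just beyond its 3′ end into the gene.

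L-strand sites were grouped by how far they were converted. 429 sites, 19.4% of the 2214, had a rate of 90% or more in all 10 libraries, with means of 99.1% at 5 min and 98.9% at 15 min. 1129 sites (51.0%) were under 20% in all 5 libraries of 15 min, and went from 35.8 to 3.67%, similar to the H strand. The remaining 656 sites went from 79.8 to 49.7%. These groups were formed from the rates and are a description. They differed in a feature that did not enter the grouping: the sites that stayed at 90% or more had a median of 2 guanines within 25 bases, and lay in guanine-free runs of the L strand with a median of 40 bases. For the sites under 20% the medians were 8 guanines and 11 bases, and for the remaining sites they were 4 guanines and 26 bases. Guanine counts are across sites, which share reads and neighbours, and the bases of neighbouring sites overlap.

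Within the pairs, sites at 90% or more in both libraries made up 24.8% of the L-strand sites in ESC 1, 22.8% in ESC 2, 20.7% in brain 1, 22.1% in liver 1 and 22.9% for synthetic mtDNA, with a mean of 22.6% ± 1.5 (SD, n = 5 pairs). Of the L-strand sites at 90% or more at 5 min, 63.0 to 71.3% were still there at 15 min. No H-strand site was at 90% or more in both libraries of a pair. The sites that stayed were spread unevenly over genes. They were 35 of 35 tested sites in ATP8, 95 of 99 in ND6, 82 of 176 in ND2, 52 of 146 in ND4, 94 of 309 in ND5 and 44 of 167 in CYTB, against 9 of 120 in the control region and none of 313 in COX1.

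When sites were classed by the number of L-strand guanines within 25 bases on either side, the change of the L strand went with the class. Sites with 0 to 2 guanines fell from 91.7 to 83.7%, a change of -8.02 ± 1.86 percentage points (SD, n = 5 pairs). Those with 3 to 5 guanines fell from 76.0 to 48.2% (-27.8 ± 3.58), those with 6 to 8 from 46.5 to 10.8% (-35.7 ± 3.97), and those with 9 or more from 33.3 to 4.32% (-29.0 ± 2.83). The order of the 4 rates was the same in each of the 5 preparations at both times. The fall was largest with 6 to 8 guanines in 5 of 5 preparations.

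On the H strand the classes differed much less, and in the other direction at 5 min. H-strand rates at 5 min were 23.7%, 30.4%, 31.9% and 32.3% for 0 to 2, 3 to 5, 6 to 8 and 9 or more guanines of the opposite L strand, and changes were -19.1, -25.0, -26.8 and -27.8 percentage points. For H-strand sites the count includes the guanine opposite the cytosine itself, so the classes of the 2 strands are not like for like. The class of 0 to 2 guanines held only 47 H-strand sites. Across the 2214 L-strand sites, the guanine count and the mean rate had a Spearman's rho of -0.73 at 5 min and -0.75 at 15 min, and -0.40 with the change. Across the 1867 H-strand sites the values were 0.08, -0.30 and -0.20. Sites within reach of each other share reads and bases, so these are given as a description.

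**Figure D4:**
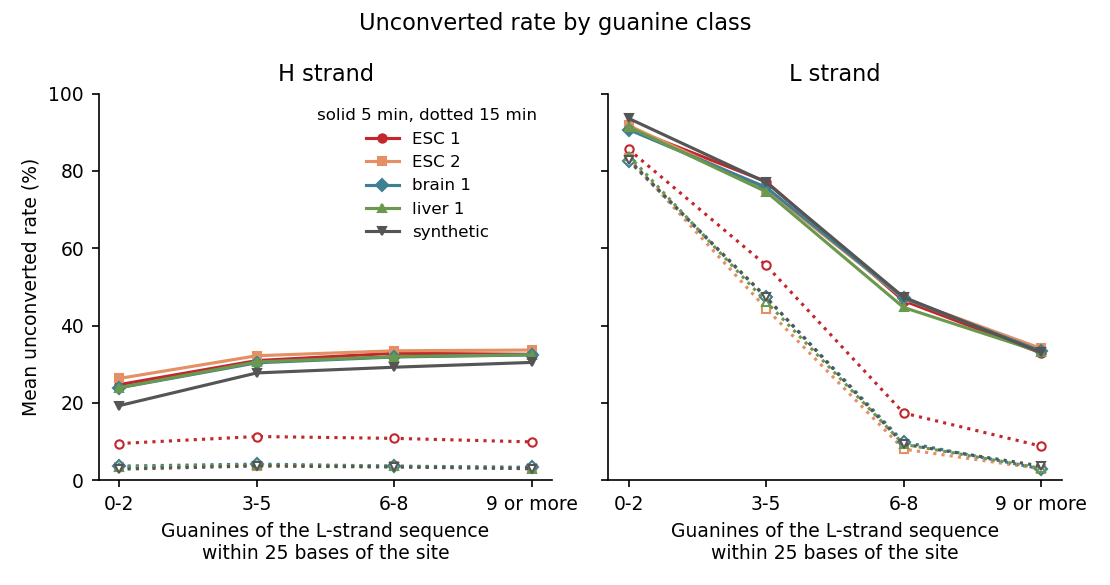
Mean unconversion rate (%) by the number of L-strand guanines within 25 bases on either side of the site, per preparation, at 5 min (solid lines) and 15 min (dotted lines), for both strands. H-strand counts include the guanine opposite the site. L-strand rates drop from over 90% to about 33% with the guanine count at 5 min. H-strand rates differ less and in the other direction, with means from 23.7 to 32.3%.

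Genes lie close together on mtDNA: those of proteins, all of them parts of respiratory complexes or ATP synthase, are mostly flanked by tRNA genes. The mean change was fitted with limma for each gene region and strand with at least 5 sites in every pair, 34 regions on the H strand and 25 on the L strand. A few sites in overlapping genes were counted in both genes. All 34 regions fell on the H strand (100%), by 21.1 to 33.5 percentage points. L-strand rates fell in 23 of 25 regions (92%). The exceptions were ND6, a complex I gene, and ATP8, a gene of ATP synthase.

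ND6 L-strand rates were 98.5% in ESC 1, 98.5% in ESC 2, 97.0% in brain 1, 98.6% in liver 1 and 98.98% for synthetic mtDNA at 5 min, and 98.8%, 99.4%, 99.1%, 99.1% and 99.7% at 15 min. The change of 0.886 ± 0.733 percentage points (SD, n = 5 pairs) did not pass the test (limma, adjusted p = 0.594). In ATP8 the L strand was at 99.6% at 5 min and 99.3% at 15 min, a change of -0.285 ± 0.970 (limma, adjusted p = 0.860), with 3 pairs higher and 2 lower. H-strand cytosines of the same genes fell by 23.7 ± 3.42 percentage points in ND6 and by 21.4 ± 3.12 in ATP8.

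As nearly all regions fell, each was also compared with the rest of its strand in the same pairs. On the L strand 6 regions fell more than the rest (24%) and 7 fell less (28%), and on the H strand 10 fell more (29.4%) and 11 less (32.4%; limma, Benjamini-Hochberg adjusted p under 0.05). Many of these calls depended on the processing: of the 13 on the L strand, those of ATP8, ND2, ND3, ND6 and the control region passed under every alternative tried, and of the 15 named on the H strand, those of ATP8, ND3, ND6 and TrnD. The region that fell most was the L strand of ND3, a complex I gene. It went from 79.96 to 31.1% in ESC 1, from 75.7 to 18.5% in ESC 2, from 82.7 to 19.0% in brain 1, from 85.0 to 22.9% in liver 1 and from 83.4 to 24.0% for synthetic mtDNA. Every value of 15 min was far below every value of 5 min. The mean change was -58.2 ± 5.82 percentage points (SD, n = 5 pairs), or 32.2 percentage points more than the rest of the L strand (relative change -32.2, SE 1.55, limma, adjusted p = 5.1e-05). The H strand of ND3 fell less than its strand, by 22.5 percentage points (relative change 4.25, SE 0.604, adjusted p = 0.00344). The median guanine count of ND3 sites was 5 on the L strand, as over the whole strand.

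Other complex I genes behaved differently. L-strand rates of ND2 were 92.7% in ESC 1, 94.4% in ESC 2, 92.9% in brain 1, 94.96% in liver 1 and 95.2% for synthetic mtDNA at 5 min and remained at 82.8%, 76.8%, 74.7%, 78.4% and 83.5% at 15 min. The change of -14.8 ± 3.77 percentage points was smaller than in the rest of the strand (relative change 12.8, adjusted p = 0.000772). ND4 (88.6 to 71.1%, relative change 9.83) and ND5 (74.2 to 49.6%, relative change 2.34) also fell less, and ND1 (67.4 to 34.2%, relative change -6.93) fell more. The call of ND4 was lost with pooled reads (adjusted p = 0.350), that of ND5 without any 1 of the native preparations (up to 0.111), and that of ND1 on the log2 scale (-0.18, adjusted p = 0.107) and when any preparation but ESC 2 was left out (up to 0.0916). The L strand of ND4L changed by -27.9 ± 12.02 percentage points, and the spread between pairs was the widest of the protein genes: -20.6 in ESC 1, -22.7 in ESC 2, -32.4 in brain 1, -16.9 in liver 1 and -46.8 for synthetic mtDNA. With this spread ND4L did not differ from its strand (adjusted p = 0.800).

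Genes of cytochrome c oxidase (complex IV) started below the mean of the L strand. COX1 fell from 33.4 to 4.96%, with a relative change that did not pass the test (-2.0, adjusted p = 0.179). COX3 fell from 44.1 to 6.39%, which was more than its strand (change -37.8 ± 3.77, relative change -11.9, adjusted p = 5.1e-05). With pooled reads the COX3 call was lost (relative change -7.77, limma, adjusted p = 0.0523). COX2 fell from 49.3 to 19.5% (adjusted p of the relative change 0.227). CYTB, the complex III gene, fell from 69.4 to 37.2%, more than the rest of the strand (relative change -5.88, adjusted p = 0.0187). This call was lost on the log2 scale (-0.11, adjusted p = 0.122), with pooled reads (-1.38, adjusted p = 0.767) and without liver 1 (adjusted p = 0.0551). For complex V, ATP6 fell less, from 90.6 to 71.7% (relative change 7.98, adjusted p = 0.00685), a call that was lost with a coverage of 20 or more (adjusted p = 0.255) and with pooled reads (0.134). Taken by complex, mean L-strand changes were -22.2 ± 3.01 percentage points for the 7 genes of complex I, -32.1 ± 5.60 for complex III, -31.4 ± 3.13 for complex IV and -12.8 ± 4.42 for complex V (SD, n = 5 pairs).

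The rRNA genes fell by similar amounts on both strands. mt-Rnr1 went from 37.8 to 8.27% on the L strand and from 34.4 to 5.99% on the H strand, and mt-Rnr2, the 16S rRNA gene, from 40.5 to 10.9% and from 31.9 to 3.81%. Both fell more than the rest of the H strand, by 1.93 and 1.61 percentage points, and mt-Rnr1 also on the L strand, by 3.0. With pooled reads none of these 3 calls passed (adjusted p = 0.270 and 0.456 on the H strand and 0.212 on the L strand). The H-strand call of mt-Rnr1 reversed on the log2 scale: relative to its starting level it retained more than the rest (0.20, adjusted p = 0.0453), whereas mt-Rnr2 retained less (-0.45, adjusted p = 0.00134).

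In the control region the L strand went from 63.1 to 38.2% in ESC 1, from 61.2 to 19.7% in ESC 2, from 62.7 to 29.97% in brain 1, from 56.6 to 19.5% in liver 1 and from 61.8 to 18.0% for synthetic mtDNA. ESC 1 and brain 1 kept the most. The mean change of -36.0 ± 7.49 percentage points (SD, n = 5 pairs) was larger than in the rest of the strand (relative change -9.94, SE 2.05, adjusted p = 0.0143). H-strand cytosines of the region fell less than their strand (-24.6 ± 2.89, relative change 2.16, adjusted p = 0.00782). The H-strand call was lost with pooled reads (limma, adjusted p = 0.0523) and on the log2 scale (0.0238, adjusted p = 0.742). The L strand of the region was thinly covered, with medians of 33 to 55.5 reads at 5 min and 20 to 27.5 at 15 min.

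The 34 fitted H-strand regions lay within a narrow range, and 11.9 to 22.7% of the 5 min rate remained. TrnF, with 4 to 7 sites per pair, was not fitted. Its H strand went from 64.0 to 26.0%, a change of -38.0 ± 13.5 percentage points (SD, n = 5 pairs). Single pairs ranged from -53.0 to -21.1, over differing sets of sites. Regions that fell more than their strand included COX2 (-28.2), COX3 (-27.6) and the rRNA genes, and those that fell less included ATP8 (-21.4), ND3 (-22.5), ND6 (-23.7), the control region (-24.6), ATP6 (-25.4) and ND1 (-25.4 percentage points). On the log2 scale 12 of the H-strand calls had the same sign and 6 of these passed the test, while mt-Rnr1 passed with the opposite sign and COX3 was at 0.00336. ESC 1 had the highest rate at 15 min in 34 of 34 H-strand regions, by 4.70 to 14.8 percentage points over the other native preparations (median 7.17), and in 18 of 25 L-strand regions. Among fitted tRNA genes on the H strand, TrnY (-33.5 ± 6.58), TrnV (-31.3 ± 3.99) and TrnA (-30.4 ± 5.17) had the largest falls and TrnD (-21.1 ± 3.36), TrnP (-21.6 ± 2.59) and TrnG (-23.3 ± 2.93) the smallest, in percentage points (SD, n = 5 pairs). TrnA did not pass the relative test (adjusted p = 0.0555).

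The L strand of tRNA genes could be fitted for 9 of 22. The largest falls were in TrnG (36.3 to 1.84%), TrnM (59.9 to 25.8%) and TrnA (36.5 to 3.20%), and the smallest in TrnF (27.7 to 3.24%), TrnW (26.3 to 2.16%) and TrnC (25.2 to 3.19%). Without ESC 1 the means at 15 min were 0.994% in TrnG, 1.96% in TrnA and 1.60% in TrnF. Of these only TrnC differed from its strand in percentage points (relative change 4.72, adjusted p = 0.0177; 0.0582 without ESC 2 and 0.0529 without brain 1), and it did so in the opposite direction on the log2 scale (-2.38, adjusted p = 0.00457). TrnG, which fell most in percentage points on the L strand, was among those that fell least on the H strand. These tRNA genes held 5 to 18 listed cytosines per strand, and the TrnA and TrnW values rest on median coverages from 13 reads upward.

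**Figure D5:**
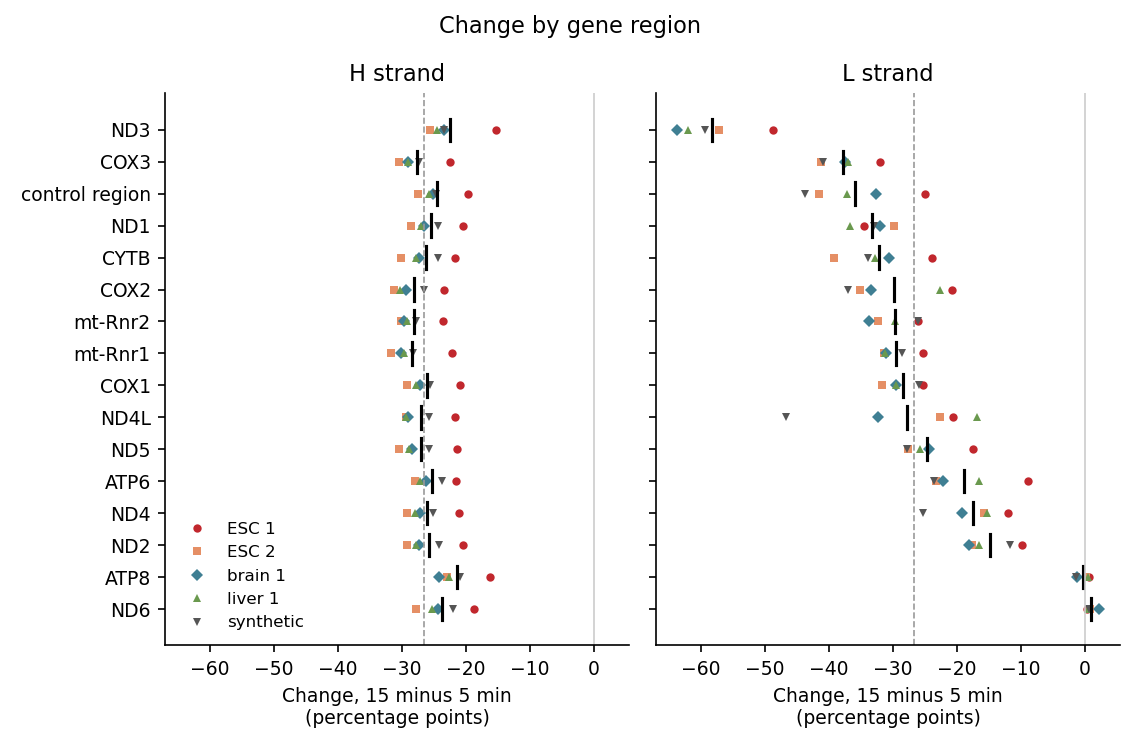
Change in unconversion rate from 5 to 15 min (percentage points) of protein genes, rRNA genes and the control region on the H and L strands, with 1 point per preparation, a black bar for the mean of the 5 pairs and a dashed line for the mean of the strand. H-strand regions sit close to the line, whereas L-strand regions spread from -58.2 in ND3 to 0.886 in ND6.

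CpG is the sequence in which most 5mC of the mammalian nuclear genome occurs, so CpG sites were set against all other cytosines. A CpG was an L-strand cytosine whose 3′ neighbour position is a listed H-strand cytosine, which gave 277 sites per strand. On the H strand, CpG sites fell from 30.4 to 4.47% and other sites from 31.7 to 4.96%. The change of CpG sites minus that of other sites was 0.0799 percentage points in ESC 1, 0.349 in ESC 2, 0.797 in brain 1, 1.02 in liver 1 and 1.63 for synthetic mtDNA. CpG sites thus fell slightly less in 5 of 5 pairs, with a mean of 0.775 ± 0.602 (SD, n = 5 pairs; exact sign-flip permutation test, p = 0.0625, adjusted 0.0781). The value was largest in the single synthetic pair, and its difference from the native pairs was not tested. With reads pooled over sites the mean was 0.0697 (exact sign-flip permutation test, p = 0.25). As a share of the starting level the direction was the opposite: 14.6% of the rate remained at CpG sites and 15.6% at other sites, a difference of -0.11 on the log2 scale (exact sign-flip permutation test, p = 0.125).

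L-strand CpG sites started lower than other sites, at 43.0% against 63.6%, and were at 14.9% against 37.0% at 15 min. The change of CpG minus other sites was -2.46 percentage points in ESC 1, -0.542 in ESC 2, -1.07 in brain 1, -0.914 in liver 1 and -2.84 for synthetic mtDNA, with a mean of -1.56 ± 1.02 (exact sign-flip permutation test, n = 5 pairs, p = 0.0625, adjusted 0.0781). With pooled reads it was -4.11, and with a coverage of 30 or more -3.71. Few of the sites that stayed unconverted are CpG. Leaving out sites of 90% or more in both libraries therefore enlarges mainly the fall of the other sites, by construction. The difference was then 4.61 percentage points, which is given as a description. CpG and guanine count are linked, with a median of 7 guanines around L-strand CpG sites and 5 around the others. The count of a CpG site includes the guanine of the CpG. Within classes of the guanine count the difference went both ways, and CpG sites fell more only with 3 to 5 guanines. Changes there were -32.1 at CpG (28 to 41 sites per pair) and -27.6 at other sites. They were -6.57 and -8.04 for 0 to 2 guanines, with only 5 to 6 CpG sites per pair. For 6 to 8 guanines they were -29.3 and -36.3, and for 9 or more -27.2 and -29.3.

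At 129 CpG pairs both the L-strand and the H-strand cytosine were tested. Both cytosines fell at 125 of them (all 129 on the H strand), and at 4 the L-strand site was not called. At 15 min the rates of the pair were within 5 percentage points of each other at 105 pairs, whereas at 13 pairs the L-strand cytosine was still at 50% or more. The latter had a median of 3 guanines within 25 bases, against 8 over all 129. The largest H-strand falls were at the CpG of nt 13107/13108 in ND5 (-35.1 ± 6.89), nt 9365/9366 in COX3 (-34.8 ± 6.11) and nt 10127/10128 in ND4L (-34.4 ± 3.02 percentage points). L-strand partners of these 3 fell by 30.7, 23.9 and 26.1 percentage points. The CpGs with the smallest H-strand falls had strands that differed widely. At nt 13924/13925 in ND6 the H-strand cytosine fell from 8.46 to 0.66%, while its partner was at 99.9% at both times. At nt 4796/4797 in ND2 the values were 12.1 to 2.86% and 99.8 to 99.9%, and at nt 12087/12088 in ND5 they were 16.2 to 2.34% and 81.5 to 66.1%.

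Among the 16 contexts formed by the bases before and after the cytosine, those with adenine after it stood out on the H strand. H-strand cytosines before A were at 35.3% at 5 min and 6.48% at 15 min, against 29.8 to 30.4% and 3.76 to 4.55% before C, G or T. They were the highest in each of the 10 libraries, 33.1 to 36.9% at 5 min and 4.42 to 13.3% at 15 min. In percentage points 6 contexts fell more than their strand (37.5%) and 7 fell less (43.8%; limma, Benjamini-Hochberg adjusted p under 0.05). The 4 contexts with A after the cytosine were among the 6. The falls were -28.9 ± 3.92 for ACA, -29.99 ± 3.49 for CCA, -29.9 ± 4.47 for GCA and -27.7 ± 3.39 for TCA. These 4 reversed on the log2 scale, where they retained more than the strand by 0.29, 0.11, 0.42 and 0.28. On that scale 8 contexts retained less (50%) and 5 more (31.2%), and CCC retained the least (10.02% of its 5 min rate).

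On the L strand 5 contexts fell more (31.2%) and 4 fell less (25%) than the strand, and 8 retained less (50%) and 6 more (37.5%) on the log2 scale. GCA, GCC, GCT and TCG fell more on both scales. GCA fell from 53.0 to 21.3%, GCC from 53.2 to 19.4% and GCT from 46.4 to 16.5%, with relative changes of -5.29, -7.44 and -3.38 percentage points. TCG, a CpG context, fell from 42.5 to 12.4% (relative change -3.48). ACC fell the least, from 68.3 to 45.3% (relative change 4.14, SE 0.269, adjusted p = 5.34e-05). The guanine counts of the contexts differed, with medians of 6 to 7 for GCA, GCC and GCT, 8 for TCG and 5 for ACC. The part of the wider sequence in these differences was not tested.

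Native mtDNA was compared with synthetic mtDNA to see whether DNA that can hold 5mC converted less in this interval. For the H strand the native change was -26.8 ± 3.58 percentage points (SD, n = 4 pairs) and the synthetic change was -25.8, a difference of -0.979 (exact permutation test, p = 1, where 4 pairs against 1 cannot go below 0.2). The difference was -2.73 without ESC 1, with all 3 other native pairs falling more than synthetic mtDNA. On the L strand the native change was -26.2 ± 3.38 and the synthetic change -28.6, a difference of 2.35 (exact permutation test, p = 0.6), or 0.719 without ESC 1. With a single synthetic pair, differences of this size could not be told apart from the spread between native pairs.

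At single sites, no H-strand change differed between native and synthetic mtDNA (0 of 1867, 0%; limma, Benjamini-Hochberg adjusted p under 0.05), with 23 sites at an unadjusted p under 0.05. Of 2214 L-strand sites, 4 differed (0.181%), with 145 at an unadjusted p under 0.05. These were L9897, L9898, L9908 and L9909 in ND4L, the protein gene whose L-strand change varied most between pairs, and they lie within 13 bases and share reads, so they are not 4 separate results. The fit has 1 synthetic pair, whose spread was taken from the native pairs, so the test sets that pair of libraries against the native ones. This spread was shared over the tested sites of both strands, with an SE of 0.954 at each of the 4 sites. The counts of the H and the L strand can therefore not be set against each other. These 4 sites are shown here because no other site passed this test.
L strand, chrM:9882-9924: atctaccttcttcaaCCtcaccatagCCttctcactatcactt
At 5 min the 4 sites were at 100% in synthetic and at 95.5 to 100% in native mtDNA. L9897 was at 88.0% in ESC 1, 88.2% in ESC 2, 75.7% in brain 1, 85.2% in liver 1 and 27.8% for synthetic mtDNA at 15 min. The synthetic value rests on 36 reads (95% Wilson interval, 15.8 to 44.0%, counting error only) and the ESC 2 value on 17. The native change was higher by 4.49 on the logit scale (SE 0.954, limma, adjusted p = 0.0106), and by 4.18 to 4.35 at the other 3 sites (adjusted p = 0.0106 to 0.0122). The calls were lost in percentage points, without ESC 1 and without liver 1. With a coverage of 20 or more the sites could not be tested, since ESC 2 had 14 to 17 reads there at 15 min. At the 4 sites the synthetic library of 15 min was at 27.8 to 32.5% and the native libraries at 71.4 to 88.2%.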

How the data were processed

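Libraries were run on a MiSeq and, per the labels and the methods, the authors processed reads with Trim Galore and mapped them with Bismark in its PBAT mode to mm10. The authors deposited, for each listed cytosine, the percent of reads in which it was unconverted, with 1 decimal, and the coverage as a count of reads without normalization. The study dropped reads of 90% or more unconverted cytosines before it averaged. That step needs single reads, which were not analysed here, so all rates are from before it. The λDNA was not analysed here either. 160 of the cytosines of the 16299 bp sequence were not analysed here.

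Unconverted reads per site were taken as percent times coverage, rounded, which is inexact at high coverage. The rate of a strand, region, class or context is the mean over its sites, so each site counts equally whatever its depth. Per library, 3 reads of the median depth over sites with 10 or more reads correspond to 0.716 to 1.34% on the H strand and 2.73 to 7.14% on the L strand. Intervals are Wilson 95% intervals and cover counting error only.

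Pairs were formed from the labels, which give the 5 and the 15 min library of a preparation the same biological replicate. Deviations of paired libraries from the means of their duration correlated at -0.0404 to -0.00208 across H-strand sites and at -0.0678 to 0.190 across L-strand sites, with a value over 0.1 only for brain 1 on the L strand. Means were compared by exact two-sided sign-flip permutation tests over 5 pairs. Sites, regions and contexts were tested with limma 3.58.1 (R 4.3.3) on paired differences, of empirical logits with an offset of 0.5 for sites and of percentage points for regions (at least 5 sites in every pair) and contexts, with p-values adjusted by Benjamini-Hochberg (threshold 0.05). The lone synthetic pair was assumed to vary like the native pairs. On the log2 scale 0.1 percentage points were added to the mean rates of regions and contexts. Scripts (Python 3.11.15, numpy 2.4.6, pandas 2.3.3, scipy 1.17.1, statsmodels 0.14.6) were tested on simulated data. The control region was taken as annotated, nt 15423 to 16299.

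Named sites were the 5 with the largest and the 5 with the smallest mean fall per strand (on the H strand, smallest only from a mean of 10% at 5 min) and those that rose. All protein and rRNA genes and the control region could be named, with the 3 tRNA genes and 3 CpGs at each extreme. H15564 and the sites that differed between native and synthetic mtDNA were named after their values were seen. The members, lists and tests were chosen with earlier results of these data known. Alternatives were the coverage minimum, pooled reads, the scale, the sites and preparations used, the logit offset, a Cochran-Mantel-Haenszel test and fits without pairing. 2 alternatives for sites, on size and direction, were chosen after seeing the data.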

Additional observations from a re-analysis of the deposited data

Results flagged for a closer look

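Of 63 values tested over the 4 native preparations for a single preparation far from the others, by Dixon's criterion (the gap to the nearest value over the range), 8 met it, and all 8 were ESC 1; chance alone gives about 1 in 20. They were its mean rate at 15 min on the H strand (10.5%) and on the L strand (41.6%), the share of the H-strand rate that remained (32.8%), and 5 changes that were smaller than in the other preparations. These were -24.1 percentage points at L-strand sites with 9 or more guanines, -25.4 in mt-Rnr1 on the L strand, and -23.6 in mt-Rnr2, -21.7 in ND4L and -17.0 in TrnP on the H strand. The values are not independent, since they come from 1 library.

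The L-strand change minus the H-strand change was -2.71 percentage points in synthetic mtDNA and above 0 in all 4 native pairs; with a single synthetic pair this difference was not tested.

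The 4 ND4L sites whose L-strand change differed between native and synthetic mtDNA (limma, adjusted p = 0.0106 to 0.0122) had differences, in a fit that gives the lone synthetic pair the spread of the native pairs, of 4.49 (L9897), 4.18 (L9898), 4.20 (L9908) and 4.35 (L9909) on the logit scale.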

How the results depend on the processing

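Without the replicate block, the mean changes of the H strand (-26.6), the L strand (-26.7) and H-strand CpG minus other sites (0.775 percentage points) were as with pairing, and the exact permutation test gave p = 0.00794, which 5 pairs cannot reach. The unpaired fit called 1866 H-strand sites as fallen, and 1827 as fallen and 42 as risen on the L strand; no other call of the comparisons given changed with the pairing.

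The L minus H change, -0.0467 percentage points, reversed to 1.89 and 3.36 with a coverage of 20 or 30 or more, 1.19 over sites covered in all 10 libraries, 0.620 in native mtDNA and 2.05 on the log2 scale (leaving out 1 preparation, -0.427 to 0.620), and was -7.63 without sites of 90% or more in both libraries. On the log2 scale CpG minus other sites on the H strand was -0.11 and native minus synthetic on the H strand 0.34. With reads pooled over sites, native minus synthetic on the L strand was -3.60, and without sites of 90% or more in both libraries CpG minus other sites on the L strand was 4.61. Leaving out these sites, which changed little and were mostly not CpG, enlarges the L-strand fall of the others by construction. With pooled reads CpG minus other sites was 0.0697 on the H strand and -4.11 on the L strand.

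Of 15 named H-strand calls of regions against their strand, 8 passed when each preparation was left out, 8 with pooled reads and 5 on the log2 scale; of 13 L-strand calls these were 8, 8 and 10.

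With a coverage of 30 or more, 1029 L-strand sites fell, among fewer sites tested. In percentage points 1672 L-strand sites fell and 20 rose, of which 15 were among the 44 of the main fit. With a mean change of 1 percentage point or more, an alternative chosen after seeing the data, 1772 fell and 35 rose, and with the same sign in all 5 pairs, also chosen after seeing the data, 1631 and 32. 0 sites differed between native and synthetic mtDNA with a coverage of 20 or 30 or more, where the 4 called sites were no longer tested, or in percentage points (0 to 4 when 1 preparation was left out, 0 without ESC 1 or liver 1).

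H-strand regions that fell more than their strand numbered 2 with pooled reads, 4 on the log2 scale and 2 to 10 when 1 preparation was left out (3 without ESC 1, 3 without ESC 2, 2 without brain 1, 4 without liver 1), and those that fell less numbered 7, 5 and 7 to 9. L-strand regions that fell more numbered 11 with a coverage of 20 or 30 or more, 3 with pooled reads, 10 in native mtDNA, 15 on the log2 scale and 3 to 10 when 1 preparation was left out (3 without liver 1, 10 without synthetic mtDNA). 4 fell less with a coverage of 30 or more. 4 H-strand contexts fell less with pooled reads and 8 L-strand contexts fell more on the log2 scale.

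Relative changes that reversed on the log2 scale were, on the H strand, mt-Rnr1 (0.20), TrnV (0.12), ND1 (-0.0158), COX3 (0.00336), TrnP (-0.12), TrnH (0.0202), TrnE (0.16), TrnT (0.20), TrnC (-0.0631), ACA (0.29), ACG (0.0515), CCA (0.11), CCC (-0.68), CCT (-0.27), GCA (0.42), GCG (-0.0411), GCT (-0.000690), TCA (0.28), TCC (-0.36), TCG (-0.19) and TCT (-0.13), and on the L strand TrnC (-2.38) and CCA (0.0774, and 2.54 percentage points with pooled reads). A fall in percentage points and a share retained are different quantities, and starting rates differed.

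The L-strand share at 90% or more in both libraries was 27.0% with a threshold of 80%, 5.16% with 100%, and 25.3% and 27.3% with a coverage of 20 or 30 or more. With guanines counted within 15 bases, L-strand changes were -18.3 (0 to 2), -34.6 (3 to 5) and -29.3 percentage points (6 to 8). Depth limits the L strand most, where 3 reads of the median coverage at 15 min are 5.00 to 7.14%.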
